A study of Mus musculus with 6 samples.

Results

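Transcripts of 9 genes of inflammasome signalling, pyroptosis and necroptosis were followed in mouse spinal cord after a contusion. They were chosen by name: the sensors Nlrp3 and Aim2, the adaptor Pycard, the caspases Casp1, Casp4 and Casp8, the pore protein Gsdmd, and the necroptosis genes Ripk3 and Mlkl. All 9 were matched by symbol among the 43432 gene identifiers of each count table. The mice were wildtype C57BL/6. In the SCI group (n = 3 mice) the cord received a contusion of 50 kdyn on 1 side at cervical level 5 from an Infinite Horizon impactor, and tissue was taken 4 h after the injury. In the sham group (n = 3 mice) only a laminectomy at that level was done, the removal of bone over the cord. The sources used here do not give age, sex or the collection time of the sham mice.

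Inflammasomes are protein platforms in which a sensor, often through the adaptor ASC, the product of Pycard, activates caspase-1. Caspase-1 matures interleukin-1 beta and interleukin-18 and cleaves gasdermin D, whose fragment forms pores in the plasma membrane, a lytic death called pyroptosis. In the non-canonical branch, mouse caspase-4, long known as caspase-11, binds bacterial lipopolysaccharide in the cytosol and cleaves gasdermin D itself. Necroptosis is another lytic death, in which the kinase RIPK3 phosphorylates MLKL, and caspase-8 restrains it. These proteins are switched on by assembly, cleavage and phosphorylation, which RNA counts do not measure.

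Casp4 was the one member that passed the test. It rose after contusion, while the interval of each of the 6 other tested members included no change. Levels are given as CPM, a gene's count over its library's total, scaled to a common library size by TMM, which corrects for differences in composition between libraries. Libraries were primed on poly(A) and read near the 3′ end of transcripts, so a count does not scale with transcript length, and levels can be ordered between genes without a length correction. A change in a tissue library can reflect fewer or more cells of a type or RNA per cell, and these cannot be told apart.

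Library totals ran from 3407176 counts in sham 3 to 11543633 in sham 2. Across all genes, 120 of 13560 tested were higher and 6 lower after injury by edgeR's quasi-likelihood test at an adjusted p under 0.05. Transcripts of neurons, astrocytes and myelinating cells were present in every library, but so were those of liver. The 16 hepatocyte markers summed to between 6.19% and 11.6% of counts, highest in sham 2 and lowest in sham 3. Summed microglial markers lay between 497 and 589 CPM in sham and between 514 and 625 CPM in SCI. Summed neutrophil markers lay between 45.8 and 110 CPM in sham and between 107 and 139 CPM in SCI (exact permutation test, p = 0.2). Erythroid markers lay between 611 and 841 CPM in sham and between 1584 and 4282 CPM in SCI (exact permutation test, two-sided, p = 0.1, the smallest that 3 against 3 can give, and adjusted p = 1 over 12 summed measures). Of the 9 T and NK cell markers, 3 had no count in any library.

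Casp4 lies on chromosome 9 from 5308828 to 5336783 on the plus strand (GRCm38; ENSMUSG00000033538), between Casp1 (5298517 to 5307265) and Casp12 (5345430 to 5373032) on the same strand. It had 6, 5 and 5 counts in sham libraries 1 to 3 and 52, 21 and 28 counts in SCI libraries 1 to 3. As CPM these were 0.788, 0.481 and 1.36 in sham and 6.29, 3.03 and 5.55 in SCI. Every SCI library lay above every sham library, and the lowest SCI value, 3.03 CPM in SCI 2, stood clear of the highest sham value, 1.36 CPM in sham 3. The mean went from 0.875 ± 0.444 CPM to 4.96 ± 1.71 CPM (SD, n = 3 mice each), a log2 fold change of 2.65 ± 0.50 (SE; edgeR quasi-likelihood test, adjusted p = 0.0141; 95% interval 1.58 to 3.72), or 6.28-fold.

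The call rested on few counts and on single mice. Casp4 passed the filter on low counts through the SCI libraries, where 3 of 3 reached its level of 1.42 CPM before scaling against 1 of 3 sham libraries, so its presence among the tested genes was tied to its being high after injury. With no filter its log2 fold change was 2.65 ± 0.51 (edgeR adjusted p = 5.75e-05). The fit with no filter used more degrees of freedom than the main fit, and the SE was no smaller, so these adjusted p are not of like strength. With a filter on the mean over all libraries, added after the data were seen, the log2 fold change was 2.65 ± 0.50 (edgeR adjusted p = 0.0139). Without sham 1, sham 2, SCI 1 or SCI 3 the adjusted p was 0.0974, 0.0515, 0.122 and 0.0733, while the log2 fold change stayed between 2.28 and 2.97 over the 6 fits that left out 1 library. Summed neutrophil markers were 72.9, 110 and 45.8 CPM in sham 1 to 3 and 107, 138 and 139 CPM in SCI 1 to 3. The ranges overlapped with TMM scaling but not with total-count scaling, where sham lay between 49.6 and 99.0 CPM and SCI between 107 and 147 CPM (exact permutation test, p = 0.1). Erythroid markers had higher values in every SCI library. The part of these transcripts in the Casp4 result was not tested. With the summed hepatocyte level as a covariate, the log2 fold change of Casp4 was 2.54 ± 0.49 (edgeR adjusted p = 0.00360).

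**Figure D1:**
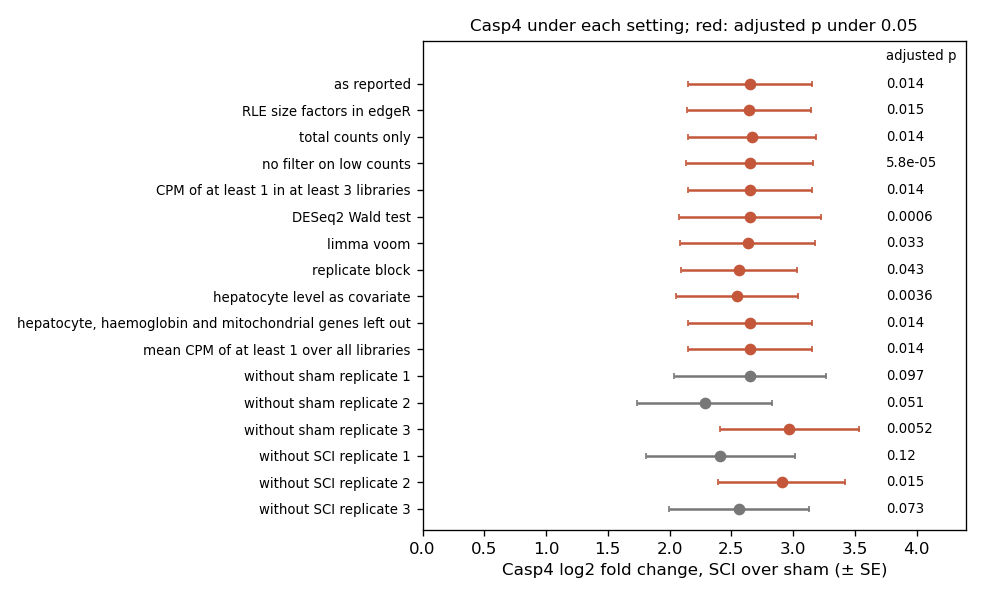
Casp4 log2 fold change (SCI over sham, horizontal axis, bars ± SE) under each setting, with the adjusted p at the right. Red points passed an adjusted p of 0.05; the fold change stays between 2.28 and 2.97 throughout, and 4 of the 6 fits that leave out 1 library lose the call.

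The neighbouring caspase genes did not show the same values. Casp1, the caspase of the canonical inflammasomes (ENSMUSG00000025888), had sham values of 4.20, 4.33 and 2.44 CPM and SCI values of 2.30, 4.04 and 2.78 CPM. The groups overlapped, and the log2 fold change was -0.32 ± 0.39 (edgeR adjusted p = 0.930; 95% interval -1.14 to 0.51). Casp12, a caspase of the same cluster and not one of the 9 genes, went from 1.07 ± 0.385 to 1.75 ± 0.287 CPM (SD, n = 3 mice each), with no call (log2 fold change 0.73 ± 0.53, edgeR adjusted p = 0.859). Its lowest SCI value, 1.45 CPM, lay just above its highest sham value, 1.44 CPM. Within a library, Casp4 had 0.188, 0.111 and 0.556 counts for each Casp1 count in sham 1 to 3. The ratio was 2.74, 0.75 and 2 in SCI 1 to 3, above the sham libraries in each case. This ratio was chosen after the values were seen and carries no test.

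The sequences before the start sites of Casp4 and Casp1 are shown because the genes are neighbours and their counts differed in response. Both are the 250 bases before the RefSeq start on GRCm38, plus strand, 5′ to 3′, for Casp4 at chr9:5308599-5308848 and for Casp1 at chr9:5298267-5298516. Casp4 has 2 RefSeq starts, and the window of the first is shown. Capitals mark matches to any of 5 motifs searched.
Casp4: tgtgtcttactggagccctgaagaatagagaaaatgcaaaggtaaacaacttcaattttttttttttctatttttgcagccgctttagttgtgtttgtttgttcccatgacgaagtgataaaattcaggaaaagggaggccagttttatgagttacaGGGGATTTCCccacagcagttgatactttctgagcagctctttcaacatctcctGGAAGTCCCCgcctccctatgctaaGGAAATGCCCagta
Casp1: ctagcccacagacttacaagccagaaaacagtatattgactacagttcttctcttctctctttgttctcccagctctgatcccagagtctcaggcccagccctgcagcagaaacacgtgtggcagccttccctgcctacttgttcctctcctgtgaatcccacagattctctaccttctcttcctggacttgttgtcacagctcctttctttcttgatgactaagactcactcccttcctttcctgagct
The 3 stretches in capitals before Casp4 are GGGGATTTCC, GGAAGTCCCC and GGAAATGCCC, which begin 93, 39 and 14 bases before the start site. All match a form of the NF-kB motif, GGG and TTCC with any 3 bases between, on the plus strand for the most distal and on the minus strand for the others. GENCODE M21 places the start of Casp4 at 5308828, and the most proximal match, at 5308835 to 5308844, lies downstream of it. Casp1 had no match to any of the motifs in this window.

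The motifs were searched on both strands and were chosen after Casp4 was known to have risen. Overlapping matches were allowed, and a match at the same position on both strands counted once. The 3 matches before Casp4 did not overlap each other. They were AP-1 (TGANTCA), NF-kB (GGG, any 3 bases, TTCC), the core of the interferon-stimulated response element (GAAA, any 2 bases, GAAA), the gamma-activated site (TTCNNNGAA) and C/EBP (TTNNGCAA). Among 32851 RefSeq start sites with a window of the same length, 4.65% held at least 1 match to the NF-kB motif and 0.0183% held 3 or more. The latter were 6 windows, and the windows of both Casp4 start sites, with the same 3 matches, are among them. The cutoff of 3 equals the number found for Casp4, so the share is a description and no test. Windows were found for 8 of the 9 members. Besides Casp4, 1 member had a match: Pycard, with the C/EBP motif, which 9.56% of all windows held. A match is a description of letters and not a measured binding site.

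Casp8, the initiator of death receptor apoptosis that also restrains necroptosis (ENSMUSG00000026029; chromosome 1, 58795374 to 58847503), had the highest mean level of the 9 genes. It stood at 16.7, 27.5 and 11.1 CPM without and 15.4, 12.8 and 15.7 CPM with contusion. The SCI values lay within the sham range, and the log2 fold change was -0.38 ± 0.28 (edgeR adjusted p = 0.864; 95% interval -0.97 to 0.22). Its direction rested on sham 2: without that library the log2 fold change was 0.0301 ± 0.25.

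Gsdmd, the pore-forming substrate of caspase-1 and caspase-4 (ENSMUSG00000022575; chromosome 15, 75862327 to 75867408), was next in level. Its values were 10.6, 15.7 and 7.32 CPM in sham and 9.31, 12.1 and 15.3 CPM in SCI. The groups overlapped, with a log2 fold change of 0.07 ± 0.29 (edgeR adjusted p = 0.983; 95% interval -0.55 to 0.68). Without sham 3 or SCI 3 the sign turned, to -0.13 in each case. A rise of Casp4 was thus measured beside a level of its substrate transcript for which no change was detectable.

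Liver transcripts moved with Casp8 across the libraries. The summed hepatocyte markers were 82262, 129133 and 57188 CPM in sham 1 to 3 and 79844, 72791 and 85654 CPM in SCI 1 to 3. Casp8 was highest in sham 2 and lowest in sham 3, the libraries with the most and the least of these markers. Gsdmd was also highest in sham 2 and lowest in sham 3, with SCI 3 close to sham 2. Microglial markers moved with Gsdmd too: their sum was 564, 589 and 497 CPM in sham 1 to 3 and 514, 532 and 625 CPM in SCI 1 to 3, highest in SCI 3 and lowest in sham 3. Over the 6 libraries Pearson's r of Gsdmd was 0.894 with the microglial and 0.807 with the hepatocyte sum, a description over libraries that share both kinds of transcript. The part of either in the Gsdmd and Casp8 values was not tested. With the summed hepatocyte level as a covariate the log2 fold change was -0.13 ± 0.20 for Casp8 and 0.26 ± 0.24 for Gsdmd (edgeR adjusted p = 0.840 and 0.708).

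**Figure D2:**
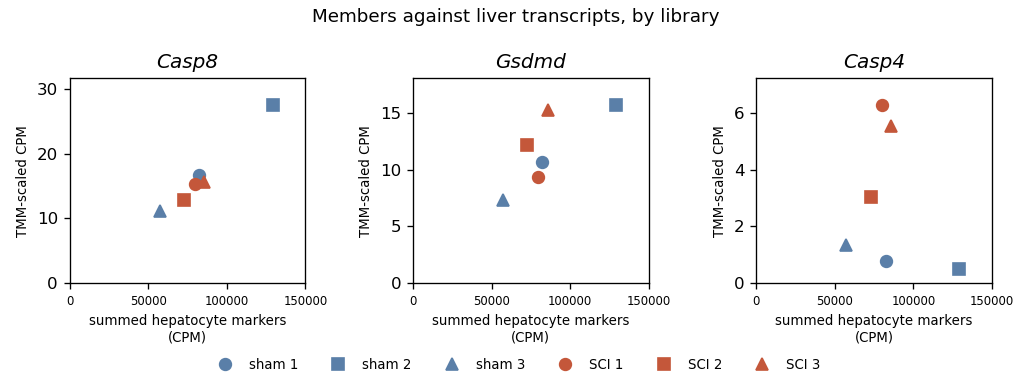
TMM-scaled CPM of Casp8, Gsdmd and Casp4 (vertical axes) against the summed level of 16 hepatocyte markers in CPM (horizontal axes), 1 point per library, sham in blue and SCI in red. Casp8 is highest where the liver markers are highest (sham 2, 27.5 CPM) and lowest where they are lowest (sham 3, 11.1 CPM); Casp4 separates by group.

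Among the sensors, Aim2, which binds double-stranded DNA in the cytosol (ENSMUSG00000037860; chromosome 1, 173350879 to 173466040), measured 4.99, 1.93 and 1.63 CPM in the sham libraries and 2.66, 2.74 and 2.58 CPM after contusion. The spread lay in the sham group, where sham 1 stood above the other libraries, and the 3 SCI libraries were close to each other. Its log2 fold change was -0.14 ± 0.46 (edgeR adjusted p = 0.981; 95% interval -1.11 to 0.84), and 0.54 ± 0.52 without sham 1. Aim2 overlaps 16817 bases of Cadm3 on the other strand, a gene with 2714 counts in these libraries, though no exon of one overlaps an exon of the other. The strand setting of the counting is not stated, so reads of the 2 genes may not be fully separated.

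Nlrp3, the sensor of membrane damage and potassium loss (ENSMUSG00000032691; chromosome 11, 59541568 to 59566956), was near the limit of detection. It had 4, 2 and 2 counts in sham and 4, 2 and 1 in SCI, too few to pass the filter. The ratio of summed counts, SCI over sham, was 0.938 with an exact 95% counting interval of 0.289 to 2.96. A change within that interval was not detectable at this depth.

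Pycard, the adaptor that joins sensors to caspase-1 (ENSMUSG00000030793; chromosome 7, 127989708 to 127993867), had sham values of 2.23, 1.25 and 2.17 CPM and SCI values of 0.967, 5.34 and 2.58 CPM. SCI libraries were both the lowest and the highest of the 6. The log2 fold change was 0.68 ± 0.57 (edgeR adjusted p = 0.881; 95% interval -0.53 to 1.89), and it was -0.12 ± 0.63 without SCI 2. A gene model on the other strand, Gm45205, shares 485 exonic bases with Pycard and was not analysed here.

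Mlkl, the executioner of necroptosis (ENSMUSG00000012519; chromosome 8, 111311797 to 111338177), stood at 1.05, 1.16 and 1.08 CPM without and 2.06, 1.88 and 1.59 CPM with contusion. The groups did not overlap, but they rested on 24 counts in sham and 38 in SCI. Mlkl was not called (log2 fold change 0.74 ± 0.49, edgeR adjusted p = 0.830; 95% interval -0.30 to 1.78). Groups did not overlap in 7.73% of all genes tested with SCI higher and in 5.94% with SCI lower. Mlkl passed the filter through the SCI libraries alone, with 3 of 3 above its level and 0 of 3 in sham. Ripk3, the kinase of MLKL (ENSMUSG00000022221; chromosome 14, 55784995 to 55788865), had 5, 5 and 0 counts in sham and 2, 5 and 0 in SCI. It was not tested for that reason, and its ratio of summed counts was 0.75, with an exact 95% counting interval of 0.242 to 2.18. A count of 0 allows up to 0.813 TMM-scaled CPM in sham 3 and 0.595 in SCI 3.

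**Figure D3:**
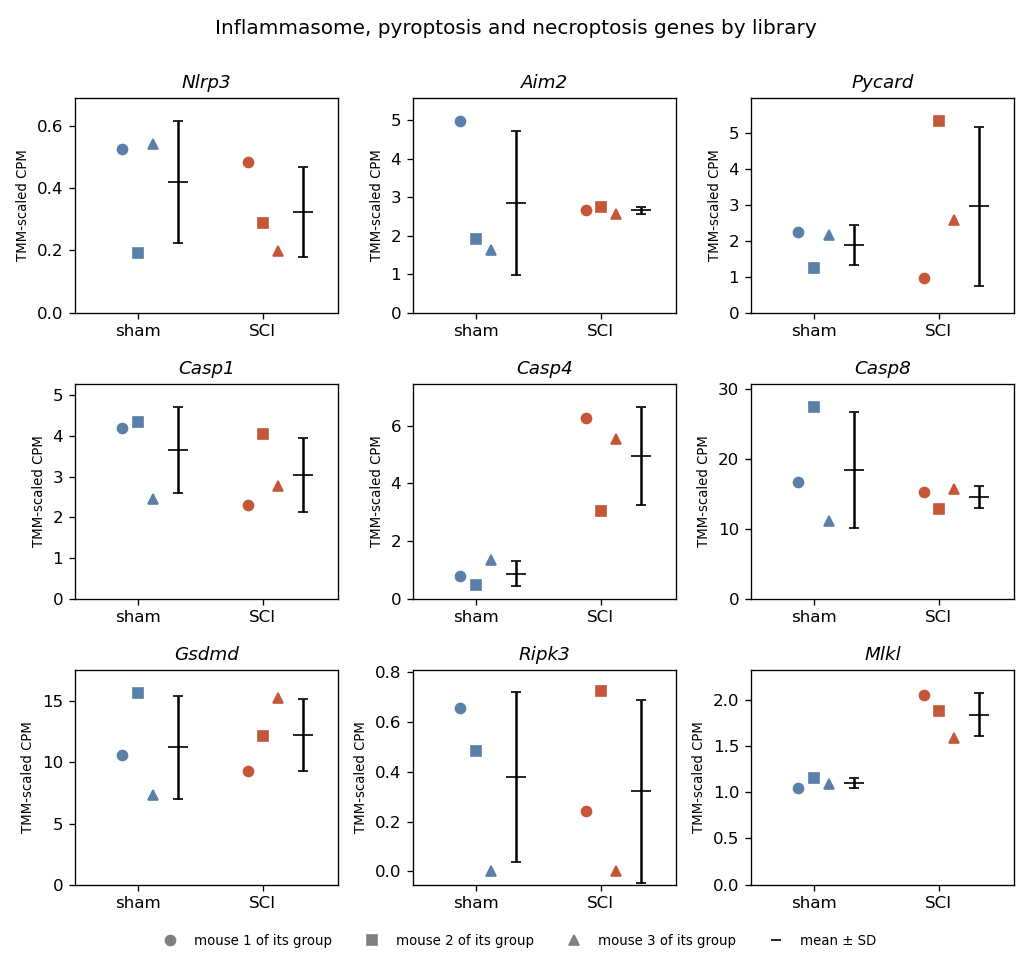
TMM-scaled CPM of the 9 genes (vertical axes, each panel with its own scale) in the sham and SCI libraries, with marker shapes for mouse 1, 2 and 3 of each group and bars for the mean ± SD of 3 mice. The groups do not overlap in Casp4 and Mlkl, and they overlap in the other 7 panels.

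Of the 9 genes, 7 passed the filter and 2, Nlrp3 and Ripk3, did not. By edgeR's quasi-likelihood test 1 of the 7 was higher and 0 were lower, and at an unadjusted p under 0.05 the counts were also 1 and 0, as they were at an adjusted p with DESeq2. Of all 13560 genes tested, 0.885% were called higher and 0.0442% lower, 0.929% in either direction, and with no filter 0.846% of 21524 genes were called higher. Since Casp4 and Mlkl passed the filter through the injured group, this count is a description. By mean level over both groups, Casp8 and Gsdmd stood above the other members in every library. Casp1, Casp4, Aim2, Pycard and Mlkl lay between 0.481 and 6.29 CPM. Their ranges overlapped, except that Mlkl, at most 2.06 CPM, stayed below Casp1, at least 2.30 CPM. Nlrp3 and Ripk3 stayed below 1 CPM in every library.

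**Figure D4:**
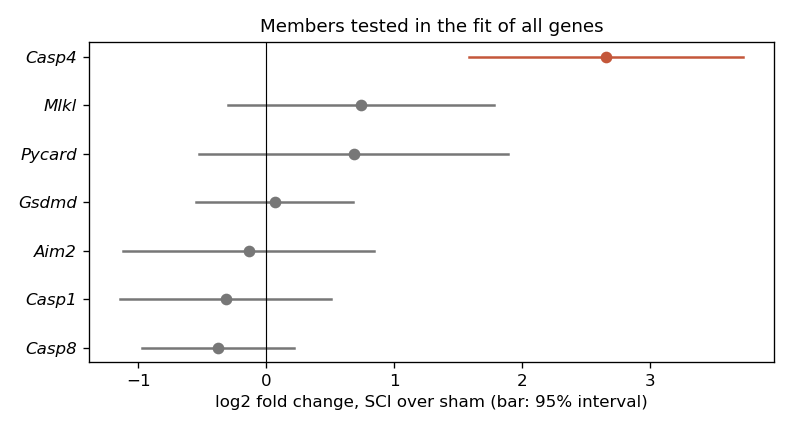
Log2 fold change of SCI over sham (horizontal axis) with its 95% interval for the 7 genes that passed the filter. The interval of Casp4, 1.58 to 3.72, lies above 0, and those of the other 6 include 0.

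Other genes of these pathways were read from 9 lists with 137 matched genes, of which 100 were tested. By edgeR 4 of the 100 were higher (Gbp2, Il1rn, Nfkbia and Bcl2l1) and 0 were lower, and DESeq2 called the same genes. Of the 100, 16 were higher and 2 lower at an unadjusted p under 0.05, and 67 had a positive log2 fold change. Over all genes tested these shares were 4.27%, 3.11% and 49.7%, and edgeR called 0.885% higher and 0.0442% lower. The median log2 fold change was 0.12, beside -0.00246 over all genes tested. Counts of calls fell to 1 without sham 1 and without SCI 2, and to 2 without SCI 1 or SCI 3.

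Il1rn, the secreted antagonist of the interleukin-1 receptor, measured 4.86, 4.62 and 2.17 CPM in the sham libraries and 13.8, 13.4 and 14.3 CPM after contusion. All SCI libraries lay close together and above the controls. Its log2 fold change was 1.75 ± 0.29 (edgeR adjusted p = 0.00454), and it kept its call without each single library (edgeR adjusted p between 0.00369 and 0.0278). Gbp2, of a family that opens bacterial membranes to caspase-4, had sham values of 3.81, 5.30 and 2.71 CPM and SCI values of 10.6, 14.1 and 13.3 CPM, with no overlap (log2 fold change 1.61 ± 0.29, edgeR adjusted p = 0.0100). It lost its call without sham 1 or SCI 2 (edgeR adjusted p = 0.0869 and 0.0716).

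No call was made for Il1b, Il18 or Il33, cytokines of the interleukin-1 family. Il1b encodes the precursor cleaved by caspase-1 and, like Il18, was picked with its values known. It stood at 12.3, 15.4 and 7.59 CPM without and 16.3, 22.1 and 18.4 CPM with contusion. The groups did not overlap, and the log2 fold change was 0.64 ± 0.25 (edgeR adjusted p = 0.519). Il33, an alarmin of astrocytes and oligodendrocytes in the cord, went from 46.9 ± 13.3 to 70.6 ± 18.4 CPM (SD, n = 3 mice each; edgeR adjusted p = 0.519). Il18 overlapped between the groups, with a log2 fold change of 0.17 ± 0.19 (edgeR adjusted p = 0.925). Il1a, the alarmin relative of Il1b and also picked with its values known, missed the filter with 2, 22 and 1 counts in sham and 3, 8 and 1 in SCI. Il1rap, the shared receptor subunit for interleukin-1 and interleukin-33, had lower values in SCI, 14.9 to 17.8 CPM against 22.8 to 26.9 CPM, and did not pass (log2 fold change -0.55 ± 0.20, edgeR adjusted p = 0.429). In the list named for inflammasome substrates and their antagonists, 1 of 8 tested genes was higher and 0 lower by edgeR, with a median of 0.38. Over all genes tested, 0.885% were called higher and 0.0442% lower, and the median was -0.00246.

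Of the other 6 tested inflammasome sensors and NOD-like receptors, 0 were called by edgeR or DESeq2 and 0 had an unadjusted p under 0.05. Nlrp6, best known from gut and liver epithelium, was the most abundant, at 24.3, 41.5 and 20.3 CPM in sham and 29.7, 26.3 and 35.9 CPM in SCI. Like Casp8, it was highest in sham 2 and lowest in sham 3, the libraries with the most and the least hepatocyte markers. Of 11 tested genes for NLRP3 activation, Gbp2 was the called one (0.885% of all genes tested were called higher). P2rx7, the ATP-gated channel upstream of NLRP3, had a log2 fold change of -0.57 ± 0.51 (edgeR adjusted p = 0.894). Among 9 tested gasdermins and genes of membrane rupture or repair, 0 were called by edgeR or DESeq2, and 0 had an unadjusted p under 0.05. Ninj1, which ruptures the membrane after the pores form, averaged 59.3 ± 15.9 CPM in sham and 69.8 ± 15.2 CPM with injury (SD, n = 3 mice each). Gsdme, another pore-forming gasdermin and picked with its values known, had a log2 fold change of 0.10 ± 0.35.

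Of 9 other caspase and apoptosome genes, 0 were called by edgeR or DESeq2 and 0 had an unadjusted p under 0.05. Their median log2 fold change was -0.051, and 4 of the 9 had a positive value, beside -0.00246 and 49.7% over all genes tested.

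Of 23 tested genes of death receptors and the RIPK1 complex, 0 were called by edgeR or DESeq2. At an unadjusted p under 0.05, 2 were higher and 1 lower, beside 4.27% and 3.11% of all genes tested. Fas, the receptor of Fas ligand, averaged 2.46 ± 0.993 CPM in sham and 5.31 ± 1.34 CPM with injury (SD, n = 3 mice each; log2 fold change 1.03 ± 0.38, edgeR adjusted p = 0.460). Tradd, the adaptor of TNF receptor 1, was at 12.3 ± 1.53 and 7.84 ± 0.543 CPM (log2 fold change -0.65 ± 0.24, edgeR adjusted p = 0.464). Birc2, a ubiquitin ligase that keeps RIPK1 from killing, had a log2 fold change of 0.48 ± 0.22 (edgeR adjusted p = 0.650), and Ripk1 itself, picked with its values known, one of 0.15 ± 0.29.

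Tnf, the ligand that can start necroptosis through its receptor, missed the filter and was picked with its values known. Its libraries held 0, 1 and 1 counts in sham and 21, 12 and 5 in SCI. Each SCI library exceeded each sham library, and in the fit with no filter the log2 fold change was 4.00 ± 0.99 (edgeR adjusted p = 0.00794). That fold change depends on the prior count, since sham held 2 counts in all, and the fit with no filter used more degrees of freedom than the main fit.

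Among 11 other tested necroptosis genes 0 were called by edgeR or DESeq2, with 1 higher at an unadjusted p under 0.05 (4.27% of all genes tested). That gene was Itpk1, an inositol phosphate kinase whose products MLKL needs. It went from 16.7 ± 2.12 to 28.6 ± 6.85 CPM (SD, n = 3 mice each; log2 fold change 0.79 ± 0.22, edgeR adjusted p = 0.188) and passed with no filter on low counts (adjusted p = 0.0461). In that fit, which used more degrees of freedom, its SE was 0.23 and so no smaller.

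Genes of priming, the Toll-like receptor and NF-kB step that raises inflammasome transcripts, had the highest median of the 9 lists, 0.56. Of 15 tested, 1 was higher and 0 lower by edgeR, 14 had a positive log2 fold change, 8 were higher at an unadjusted p under 0.05 and 7 had groups that did not overlap with SCI higher. Over all genes tested the last 3 shares were 49.7%, 4.27% and 7.73%, and edgeR called 0.885% higher and 0.0442% lower. Nfkbia, the inhibitor of NF-kB that NF-kB itself induces, measured 116, 171 and 93.8 CPM in the sham libraries and 290, 268 and 246 CPM after contusion. Its log2 fold change was 1.07 ± 0.23 (edgeR adjusted p = 0.0326), and the call was lost without sham 1, SCI 1, SCI 2 or SCI 3 (adjusted p = 0.297, 0.189, 0.145 and 0.0817). Relb, an NF-kB subunit, had 23 counts in sham and 71 in SCI (log2 fold change 1.70 ± 0.48, edgeR adjusted p = 0.208). Nfkb2, its partner and picked with its values known, was at 4.69 ± 0.610 and 8.29 ± 0.396 CPM (SD, n = 3 mice each; edgeR adjusted p = 0.402). Tlr2, a receptor for bacterial lipoproteins, had sham values of 1.31, 2.79 and 1.08 CPM and SCI values of 7.50, 6.64 and 2.58 CPM, with SCI 3 below sham 2. It did not pass (edgeR adjusted p = 0.219), but did with no filter (0.0150) or once the hepatocyte covariate was included (0.0378). The fit with no filter used more degrees of freedom than the main fit.

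Of 8 tested inflammasome inhibitors, 1 was higher and 0 lower by edgeR, beside 0.885% and 0.0442% of all genes tested. Bcl2l1, which encodes the survival protein BCL-XL, stood at 42.8, 46.7 and 49.6 CPM without and 76.5, 84.9 and 96.5 CPM with contusion, with no overlap (log2 fold change 0.89 ± 0.18, edgeR adjusted p = 0.0186). The call was lost without sham 1, SCI 1, SCI 2 or SCI 3 (adjusted p = 0.236, 0.0593, 0.0995 and 0.104). Serpinb1a, an inhibitor of neutrophil proteases that restrains caspase-1, had lower values in SCI, 27.2 to 39.8 CPM against 43.2 to 49.7 CPM, and did not pass (edgeR adjusted p = 0.710).

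**Figure D5:**
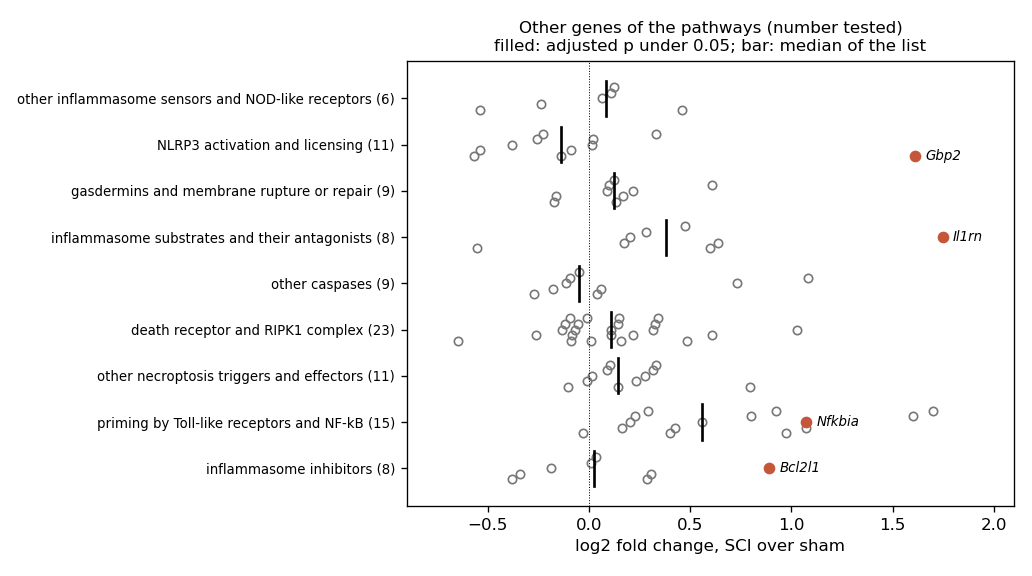
Log2 fold change of SCI over sham (horizontal axis) for 100 tested genes in 9 pathway lists, 1 circle per gene, with the number tested in brackets. Filled circles passed an adjusted p of 0.05 (Gbp2, Il1rn, Nfkbia and Bcl2l1) and black bars are list medians, from -0.14 (NLRP3 activation) to 0.56 (priming).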

How the data were processed

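Spinal cord RNA of 6 mice was measured with the Lexogen QuantSeq Forward kit, per the labels' protocols. The authors deposited whole-number read counts per Ensembl gene, 1 table per sample, not normalized. Reads were aligned with STAR 2.7.2b to mm10 with Ensembl release 96, per the labels' design text. DESeq2 1.24.0 is among the tools in the submitters' processing notes. The counting tool, its strand setting and any use of molecular identifiers: not given in the sources used here. Thus counting intervals and limits from a count of 0 (3 counts) cover counting error only. The design text gives 3 mice per group, and libraries were treated as separate animals. No pair of libraries within a group matched within sampling noise (chi-square per degree of freedom 6.97 to 38.0).

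Genes passing filterByExpr (13560 of 21524 with at least 1 count) were compared in edgeR with its quasi-likelihood test, TMM scaling and robust estimation (edgeR 4.0.16, R 4.3.3), with Benjamini-Hochberg adjustment over all genes tested and calls at an adjusted p under 0.05. Each SE was obtained from the test's F statistic (log2 fold change over root F). Counting intervals of summed counts are Clopper-Pearson intervals of the SCI share, set against TMM-scaled depth. DESeq2 1.42.0 and limma voom (limma 3.58.1), other scalings and filters, a replicate block, a hepatocyte covariate and leaving out each library were alternatives. Symbols came from the reference names, positions from GENCODE M21 (GRCm38) and promoter windows from RefSeq (GRCm38.p6). Of the listed symbols, 6 had no match and were not analysed here (Ifi16, Gbp5, Irgb10, Tam41, Pydc3 and Pydc4).

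The members and lists were chosen with earlier results of these data known. By rule the named genes were all 9 members, the 3 smallest p and the highest level of each pathway list, and the 3 genes most like the member with the smallest p and the most abundant member. Not every gene the rule names is reported here. The procedure was tested on simulated counts, but the settings and outcome are not reported here, and no result rests on them. Same-numbered sham and SCI libraries did not deviate together (correlations of -0.0848, -0.0654 and -0.172), so the numbers were not read as pairs.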

Additional observations from a re-analysis of the deposited data

How the results depend on the processing

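The number of members called higher was 1 in each fit of all 6 libraries, and 0 to 1 over the 6 fits without 1 library. The count of members lower was 0 throughout. Genes called higher among all tested numbered 120, or 182 with no filter on low counts, 206 with the hepatocyte level as a covariate and 62 to 132 without 1 library. Those called lower numbered 6, or 42, 27 and 1 to 14 in the same order, 11 with DESeq2 and 1 with the replicate block. Pathway genes called higher numbered 4, or 7 with no filter, 2 with the replicate block and 1 to 5 without 1 library. The fit with no filter used more degrees of freedom than the main fit, so its counts of calls are not of like strength. Under the replicate block, Casp4 had 2.56 as its log2 fold change (edgeR adjusted p = 0.0426), 81 genes in all were higher, and no library correlated best with its own number in the other group.

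Of 290 values for 29 named genes in fits of all libraries, 284 kept their direction and their side of the threshold. The sign of Aim2 turned with limma voom (0.0297). Without 1 library the log2 fold change ran from -0.42 to 0.54 for Aim2, -0.12 to 1.13 for Pycard, -0.61 to 0.0301 for Casp8, -0.13 to 0.38 for Gsdmd and -0.12 to 0.43 for Nlrp6, none of them called. Mlkl missed the filter without SCI 1. The difference in summed meningeal and fibroblast markers was -0.202 CPM and turned to 8.43 CPM with total-count scaling. The causes were not tested. Depth limits Nlrp3, Ripk3, Mlkl and the sham values of Casp4, which rest on 8, 10, 24 and 16 counts in the sham group.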

Other observations

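Over the 6 libraries, the log2 level of Casp4 ran most closely with Hk2, the inducible hexokinase (Pearson r = 0.991), and Ddx42, an RNA helicase (0.991), of those reported here, among 10471 genes with a mean of at least 5 CPM. Hk2 was itself higher after injury (log2 fold change 1.53, edgeR adjusted p = 0.0406), while Ddx42 was not called (edgeR adjusted p = 0.464). With so many genes and 6 libraries, high values of r arise for many genes, and these are a description with no test. Casp8 ran most closely with Pitrm1, a mitochondrial peptidase (0.997), Fgb, the fibrinogen beta chain made in liver (0.997), and Lipa, the lysosomal acid lipase (0.997).

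Nod2, a cytosolic sensor of bacterial cell wall fragments, had 0 counts in each sham library and 3, 4 and 2 counts in the SCI libraries. It missed the filter and was chosen after its values were seen.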
